A study of Mus musculus with 536 samples.

Results

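A group of 10 C57BL/6 mice that had received 150 cGy of total body irradiation was compared with 3 unirradiated mice, all bled 7 days (168 hr) later. The mice were those of the series' small 7 day set, chosen by the set code and the dose and day in their titles. With the unirradiated mice of the same set bled at 6 hr (3 mice) and 24 hr (2 mice, numbered 2 and 3), the experiment held 18 of the 536 arrays. Every group received no treatment beside its dose, and the labels give the sex of these 18 mice as unknown.

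In the series, female and male C57BL/6 mice of 10 to 12 weeks of age were irradiated once with a caesium-137 source at 480 cGy per minute, or left unirradiated. Blood was taken by terminal cardiac puncture into PAXgene fluid, total RNA was depleted of beta-globin transcripts with GLOBINclear, and it was hybridised to the Affymetrix Mouse 430A 2.0 array. Other sets of the series gave 6 mice at 6 hr after 150 cGy with 6 unirradiated mice (the small treatment set), and 5 mice each at 168 hr after 0, 100 and 200 cGy (the dose-time set). Each array came from a mouse of its own, and a level is the log2 signal of 1 probe set, so a difference between groups is a log2 fold change.

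Whole blood carries the RNA of leukocytes, platelets and immature red cells. Lymphocytes, B cells above all, die readily after irradiation and are replaced slowly, whereas granulocytes and red cells are replenished from bone marrow progenitors that are themselves sensitive to radiation. The transcription factor p53 is activated within hours by DNA damage and induces genes of cell-cycle arrest and repair. Reticulocytes, the last immature stage of the red cell, still hold transcripts for haem synthesis, membrane proteins and globins.

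The irradiated and unirradiated arrays of the set differed in their overall spread before any gene was considered. The SD of log2 levels over the 12393 genes of an array was 1.68 to 2.03 in the 10 mice at 168 hr after 150 cGy, against 2.19 to 2.23 in the 3 unirradiated mice at 168 hr, with no overlap (difference of means -0.312, two-sided exact permutation p = 0.00699). Irradiated mice 3, 4 and 7 stood apart, with SDs of 1.68 to 1.73, against 1.94 to 2.03 in the other 7 irradiated mice. The dose-time set at 168 hr showed 1.98 to 2.10 in unirradiated mice, 1.86 to 1.97 after 100 cGy and 1.67 to 2.02 after 200 cGy. The part that this narrower spread has in the results below was not tested, and so the counts and medians of lists without mice 3, 4 and 7, after quantile normalisation of the arrays, or with the array's SD as a covariate are given where they differed most from the main ones. The alternative without those 3 mice was chosen after seeing the data. Since the SDs of irradiated and unirradiated arrays did not overlap, dose and spread cannot be told apart with the SD covariate. Its estimates extrapolate beyond the SDs measured in each group.

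An array of the small treatment set went against its label. In the array labelled unirradiated mouse 10, Cd79a, a signalling chain of the B cell receptor, was at 7.23, whereas the 6 irradiated mice at 6 hr had levels of 8.40 to 10.07 and the other 5 unirradiated mice 10.82 to 11.74. Cdkn1a, the p53 target p21, was at 10.47 in that array, whereas the irradiated mice had levels of 9.38 to 10.12 and the other 5 unirradiated mice 7.03 to 7.47. Both genes put that array beyond the irradiated mice and far from the others of its own label, so the results at 6 hr are given with and without it, a choice made after seeing the data.

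Blood markers were present on all 18 arrays. S100a8, a calcium-binding protein of neutrophils, had levels of 12.50 to 14.15 in the irradiated mice and 12.30 to 13.26 in the 8 unirradiated mice, and the platelet chemokine Pf4 had levels of 12.15 to 13.17 and 12.25 to 13.20 in the same groups. Xist, the RNA of the inactive X chromosome, was between 10.82 and 11.58 in the irradiated mice and between 12.06 and 12.80 in the 8 unirradiated mice, and the Y-linked gene Eif2s3y lay between 2.89 and 3.32 on every array of the set.

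At 168 hr after 150 cGy, 8314 of 12393 genes (67.1%) differed from unirradiated mice at a limma adjusted p under 0.05, 4189 of them higher (33.8%) and 4125 lower (33.3%). The median difference over all genes was 0.09. With the dimmest 30% of genes left out, 2149 genes rose and 3897 fell. Rises and falls lay at different ends of the signal range. Of the rises, 66.0% were in the 2 lowest quintiles of genes by mean level, and 70.1% of the falls were in the 2 highest quintiles. In the lowest quintile 50.5% of genes rose and 3.51% fell, and in the highest quintile 11.5% rose and 59.4% fell. Without mice 3, 4 and 7 the corresponding shares of rises and falls were 62.5% and 68.4%, whereas after quantile normalisation they were 26.3% and 53.1%. Quantile normalisation called 5348 genes (43.2%), the SD covariate 3410 (27.5%), and the 7 other irradiated mice alone 8673 (70.0%). Those 7 mice after quantile normalisation gave 6365 (51.4%), and all 10 against all 8 unirradiated mice gave 9912 (80.0%). Because most genes were called, each list below is described by its direction and its median as well as its count. The lists were chosen with earlier results of these data known. A list's share beside that of all genes is therefore a description and not a test.

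**Figure D1:**
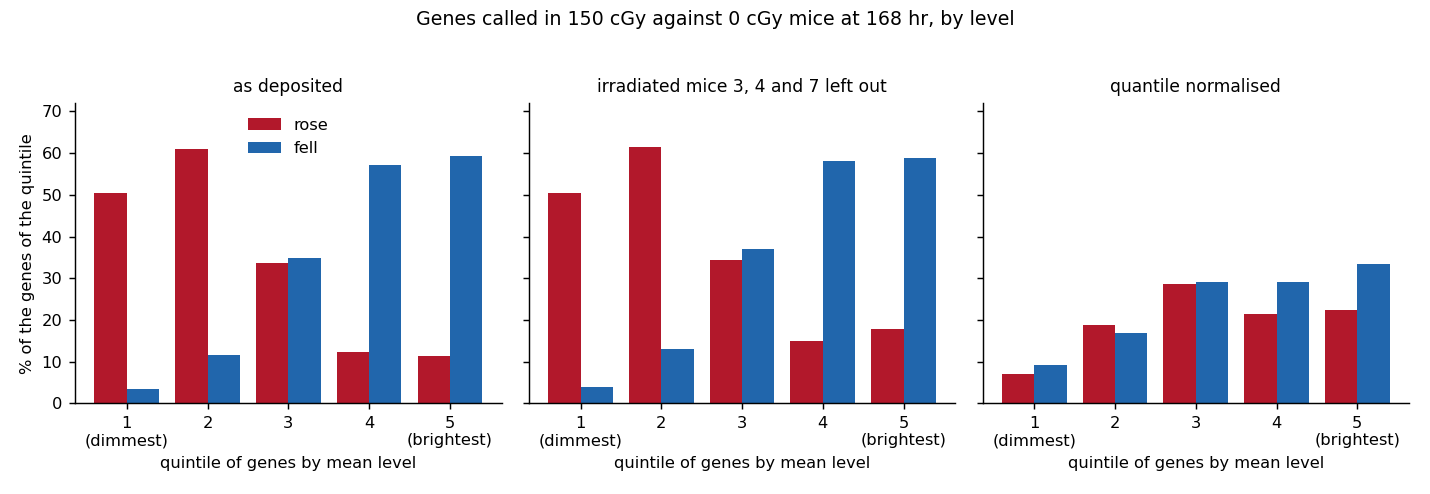
Share of genes called higher (red) and lower (blue) at 168 hr after 150 cGy than in unirradiated mice of the small 7 day set, in percent (y axis), for quintiles of genes ordered by mean log2 level (x axis), with the arrays as deposited, without irradiated mice 3, 4 and 7, and after quantile normalisation. With the arrays as deposited 50.5% of the lowest quintile rose and 59.4% of the highest quintile fell, and after quantile normalisation 6.94% and 33.4% did.

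B cell genes were lower in every irradiated mouse. Of the 23 measured genes of the B cell receptor and surface, 22 fell and 1 rose, with a median difference of -1.99, where 33.3% of all genes fell. After quantile normalisation 17 fell, and with the SD covariate 19. For 21 of the 23 genes all 10 irradiated mice were below the 3 unirradiated mice at 168 hr, a pattern that 28.1% of all genes showed. Cd22, an inhibitory co-receptor of the B cell receptor, had a lowest level of 8.54, a median of 9.09 and a highest level of 9.36 in the irradiated mice, against 11.44, 11.37 and 11.55 in the 3 unirradiated mice at 168 hr. The groups lay well apart without overlap, and the unirradiated mice at 6 and 24 hr lay with the other unirradiated mice (lowest of all 8, 11.25). The difference was -2.47 ± 0.18 (SE, limma adjusted p = 1.38e-07) and -2.34 without mice 3, 4 and 7. Fcer2a, the low-affinity IgE receptor CD23 of mature B cells, fell by 2.41 ± 0.21 (adjusted p = 5.51e-07). Cd79a, a signalling chain of the B cell receptor, fell by 2.24 ± 0.16 (adjusted p = 1.38e-07). Vpreb3, a chaperone-like protein of immature B cells, fell by 2.32 ± 0.20 (adjusted p = 5.1e-07). The list's mean shift from the unirradiated mice at 168 hr was between -2.11 and -1.32 in the irradiated mice and between -0.13 and 0.11 in those unirradiated mice. The gene that rose was Cd24a, a surface glycoprotein that red cell precursors also carry, with a difference of 0.51 ± 0.11 (adjusted p = 0.000894). In bulk blood, fewer cells of a type and less RNA per cell cannot be told apart.

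**Figure D2:**
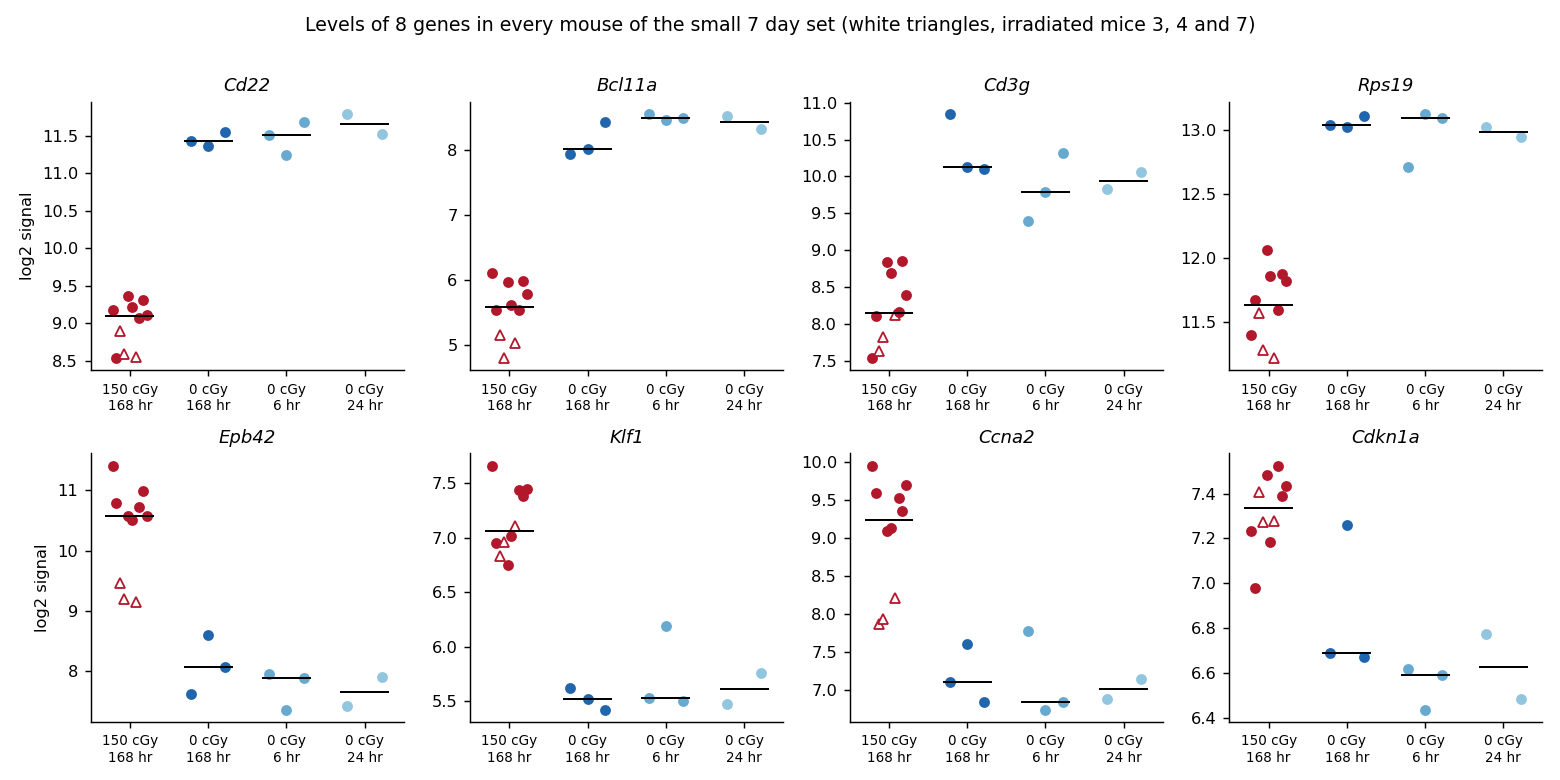
Log2 signal (y axis) of 8 genes in each mouse at 168 hr after 150 cGy and in unirradiated mice at 168, 6 and 24 hr of the small 7 day set (x axis); 1 point is 1 mouse, the black bar is the group median, and white triangles are irradiated mice 3, 4 and 7. Cd22, Bcl11a, Cd3g and Rps19 lay lower in all irradiated mice than in any unirradiated mouse, and Epb42, Klf1 and Ccna2 lay higher. Cdkn1a, by its brighter probe set, overlapped.

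The transcription factors of the B lineage were lower too. Of 13 measured, 11 fell and 0 rose, and the median difference was -1.73 (9 fell and the median was -1.13 with the SD covariate). Of all genes 33.3% fell. Bcl11a, a zinc-finger factor required for B cell development, had levels of 4.80, 5.58 and 6.11 (lowest, median, highest) in the irradiated mice and 7.94, 8.02 and 8.43 in the unirradiated mice at 168 hr. No irradiated mouse reached the lowest unirradiated one, and the difference was -2.58 ± 0.23 (adjusted p = 6.24e-07). Ebf1, a factor that specifies the B lineage, fell by 2.16 ± 0.25 (adjusted p = 6.22e-06), and Foxp1 fell by 2.05 ± 0.27 (adjusted p = 1.45e-05). Pou2f2 and Pax5 did not pass the test, and Pax5, the factor that maintains B cell identity, had low levels in both groups (means of 4.92 and 4.60 in irradiated and unirradiated mice, difference 0.32 ± 0.15, adjusted p = 0.0692).

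Of 9 measured genes of MHC class II presentation, by which B cells, monocytes and dendritic cells display peptides, 8 fell and 1 rose, with a median of -1.74. All 8 that fell were lower in each irradiated mouse than in the 3 unirradiated mice at 168 hr. Of all genes 33.3% fell, and 28.1% showed that pattern. H2-Ab1, the beta chain of the H2-A molecule, had levels of 9.31, 10.15 and 10.45 (lowest, median, highest) in the irradiated mice and 12.19, 11.87 and 12.31 in the unirradiated mice at 168 hr (difference -2.18 ± 0.24, adjusted p = 3.51e-06). The irradiated mice were all lower than the 3 unirradiated ones by more than 1 log2 unit. Cd74, the invariant chain that guides class II molecules, fell by 1.93 ± 0.19 (adjusted p = 1.4e-06), and H2-Oa, a subunit of the H2-O modulator of peptide loading in B cells, fell by 2.34 ± 0.19 (adjusted p = 3.03e-07). H2-Ea, whose gene carries a promoter deletion in C57BL/6 mice, was called higher by 0.54 ± 0.14 (adjusted p = 0.00246), with means of 6.99 in the irradiated and 6.45 in the unirradiated mice. Immunoglobulin and plasma cell genes were mixed, with 4 of 12 higher and 4 lower (1 and 2 with the SD covariate). The heavy chain variable segment Ighv14-2 fell by 2.82 ± 0.25 (adjusted p = 6.24e-07), whereas the plasma cell receptor Tnfrsf17 rose by 0.53 ± 0.11 at very low levels (3.49 to 3.87 in irradiated and 3.03 to 3.40 in the 8 unirradiated mice). Ighm, the mu heavy chain, fell by 1.20 ± 0.31 (adjusted p = 0.00301), but its 11 probe sets disagreed and only 3 shared this sign.

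T cell genes were lower as well. Of 28 measured genes, 23 fell and 1 rose, with a median of -1.37, where 33.3% of all genes fell. With the SD covariate 15 fell, and the median was -0.78. For 20 genes every irradiated mouse was below the 3 unirradiated mice at 168 hr, a pattern that 28.1% of all genes showed. Cd3g, the gamma chain of the T cell receptor complex, had levels of 7.54, 8.14 and 8.85 (lowest, median, highest) in the irradiated mice and 10.85, 10.13 and 10.10 in the unirradiated mice at 168 hr. The highest irradiated mouse was below the lowest of all 8 unirradiated mice (9.40), and the difference was -2.15 ± 0.27 (adjusted p = 1.18e-05). Cd8a, the co-receptor of cytotoxic T cells, fell by 1.44 ± 0.19 (adjusted p = 1.49e-05). Il7r, the receptor for the survival cytokine interleukin 7, fell by 1.66 ± 0.23 (adjusted p = 2.05e-05), and Ccr7, a homing receptor of naive T cells, fell by 1.59 ± 0.21 (adjusted p = 1.66e-05). Cd3e overlapped between the groups (8.42 to 9.38 in irradiated and 9.20 to 9.76 in unirradiated mice at 168 hr). Its difference of -0.48 ± 0.18 (adjusted p = 0.0255) turned to 0.16 after quantile normalisation and missed the threshold without unirradiated mouse 1 or mouse 3. Cd4 did not pass the test (0.09). The gene that rose was Zap70, a kinase of T cell receptor signalling, by 1.07 ± 0.32 (adjusted p = 0.00685), and it was -0.31 with the SD covariate (adjusted p = 0.154).

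Genes of natural killer and cytotoxic cells gave calls that depended on the scaling. Of 20 measured, 7 fell and 1 rose, with a median of -0.70, a share of falls near the 33.3% of all genes, and 1 gene fell after quantile normalisation and 0 with the SD covariate. Klrd1, the CD94 chain of the NKG2 receptors, had levels of 8.77, 9.67 and 10.27 (lowest, median, highest) in the irradiated mice and 11.32, 10.63 and 10.90 in the unirradiated mice at 168 hr. It fell by 1.37 ± 0.33 (adjusted p = 0.00182), yet the 8 unirradiated mice together reached down to 9.20 and overlapped. Nkg7, a granule membrane protein of cytotoxic cells, had a difference of -0.89 ± 0.29 (adjusted p = 0.0115) that missed the threshold without unirradiated mouse 1 (-0.77) or mouse 3 (-0.70). Klra8, the activating receptor Ly49H, spread from 5.35 to 7.84 in the irradiated mice, the lowest being among mice 3, 4 and 7, and its difference of -1.41 ± 0.54 (adjusted p = 0.0276) was 0.13 with the SD covariate.

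**Figure D3:**
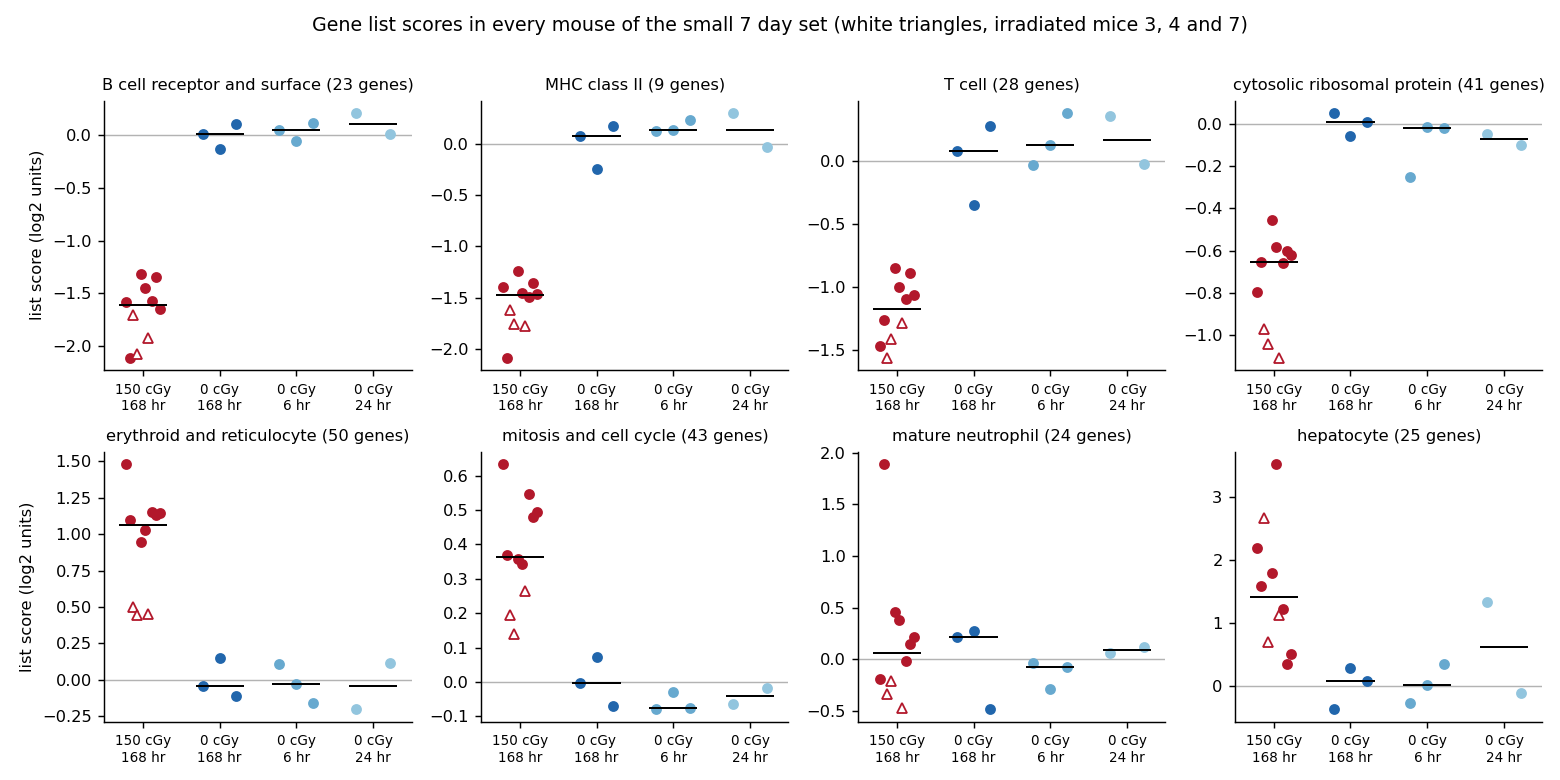
Mean shift of the genes of 8 lists from their average in the unirradiated mice at 168 hr, in log2 units (y axis), in each mouse of the small 7 day set at 168 hr after 150 cGy and unirradiated at 168, 6 and 24 hr (x axis); 1 point is 1 mouse, black bars are medians, and white triangles are irradiated mice 3, 4 and 7. The B cell shifts of the irradiated mice lay between -2.11 and -1.32 and the erythroid shifts between 0.44 and 1.48, with mice 3, 4 and 7 lowest among the erythroid shifts.

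Cytosolic ribosomal protein genes were lower as a group. Of 41 measured, 33 fell and 1 rose, with a median of -0.71. Of all genes 33.3% fell, and of those in the highest quintile of level 59.4% did. For 35 genes of the list all 10 irradiated mice were below the 3 unirradiated mice at 168 hr, a pattern that 28.1% of all genes showed. With the SD covariate 17 of the list fell, and the median was -0.32. Rps19, a protein of the small subunit, had levels of 11.22, 11.63 and 12.06 (lowest, median, highest) in the irradiated mice and 13.04, 13.02 and 13.11 in the unirradiated mice at 168 hr. All irradiated mice lay below the unirradiated ones. The difference was -1.42 ± 0.16 (adjusted p = 5.19e-06), and it was -1.31 after quantile normalisation. Rpl6, a protein of the large subunit, fell by 1.22 ± 0.12 (adjusted p = 1.64e-06). Rpl37 had the largest difference of the list (-2.57 ± 0.66, adjusted p = 0.00286), but irradiated mice 3, 4 and 7 (5.20 to 6.00) were far below the other 7 (7.34 to 8.87), and the value was 0.19 with the SD covariate. The gene that rose was Rpl27a (1.11 ± 0.27, adjusted p = 0.00191). Mature lymphocytes are rich in ribosomal protein transcripts among blood cells, and the lymphocyte lists above moved the same way. The part of the lymphocytes in this change was not tested.

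Red cell genes moved in the opposite direction. Of 50 measured erythroid and reticulocyte genes, 41 rose and 2 fell, with a median difference of 1.004, where 33.8% of all genes rose. After quantile normalisation 41 rose and 0 fell (median 1.17), and without mice 3, 4 and 7 the counts were 45 and 2 (median 1.23). With the SD covariate 43 rose and 0 fell (median 1.54). For 30 genes all 10 irradiated mice were above the 3 unirradiated mice at 168 hr, a pattern shown by 26.5% of all genes. The mean shift of the list was 0.44 to 0.50 in mice 3, 4 and 7 and 0.95 to 1.48 in the other 7 irradiated mice, against -0.11 to 0.15 in the unirradiated mice at 168 hr.

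Epb42, protein 4.2 of the red cell membrane skeleton, showed the largest change of the list. Its levels were 9.15, 10.57 and 11.41 (lowest, median, highest) in the irradiated mice and 7.63, 8.60 and 8.07 in the unirradiated mice at 168 hr, a difference of 2.24 ± 0.40 (adjusted p = 0.00017). Mice 3, 4 and 7 (9.15 to 9.46) lay between the unirradiated mice and the other 7 irradiated mice (10.52 to 11.41). Rhd, the blood group protein Rh, rose by 2.10 ± 0.28 (adjusted p = 1.54e-05), and Dmtn, the actin-bundling protein dematin, rose by 2.03 ± 0.35 (adjusted p = 0.000149). Klf1, the transcription factor that drives the late erythroid genes, had levels of 6.75, 7.06 and 7.66 in the irradiated mice and 5.62, 5.52 and 5.42 in the unirradiated mice at 168 hr. No irradiated mouse overlapped any unirradiated one, mice 3, 4 and 7 included (difference 1.63 ± 0.19, adjusted p = 5.95e-06). Trim10, a tripartite-motif protein of terminal erythroid maturation, rose by 1.30 ± 0.18 (adjusted p = 2.26e-05). Rhag, the partner of Rh in the membrane, had levels of 5.39 to 6.48 in mice 3, 4 and 7, inside the range of unirradiated mice, and 7.86 to 8.96 in the other 7. Its difference was 1.50 ± 0.56 (adjusted p = 0.026), it was 2.19 without those 3 mice, and the call was lost without any 1 of the 3 unirradiated mice. Alas2, which starts haem synthesis in erythroid cells, was near the top of the signal range in both groups (14.19 to 14.39 in irradiated and 14.01 to 14.11 in unirradiated mice at 168 hr), and its small difference of 0.25 ± 0.10 (adjusted p = 0.0326) was also lost without any 1 unirradiated mouse. The genes that fell were Cited2 (-0.84), a transcriptional co-regulator, and Add1 (-0.57), an adducin also present outside red cells.

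Erythroid promoters often hold binding motifs of GATA factors, the family of the red cell regulator GATA1. The windows of 3 genes of the list are shown because they rose and held the letters AGATAA or, on the other strand, TTATCT, in capitals here. They are RefSeq sequences of GRCm38.p6 that run from 250 bases before to 50 bases after the gene's start, 5' to 3' on the gene's strand: Epb42 at chr2:121036828-121037127 on the minus strand, Rhd at chr4:134864286-134864585 on the plus strand and Trim10 at chr17:36869324-36869623 on the plus strand.
Epb42: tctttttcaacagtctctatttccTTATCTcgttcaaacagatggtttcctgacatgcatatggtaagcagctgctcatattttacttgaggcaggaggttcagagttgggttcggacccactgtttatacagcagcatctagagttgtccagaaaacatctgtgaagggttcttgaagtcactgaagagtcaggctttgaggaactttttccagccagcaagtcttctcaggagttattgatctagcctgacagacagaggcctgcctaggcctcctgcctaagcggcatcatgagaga
Rhd: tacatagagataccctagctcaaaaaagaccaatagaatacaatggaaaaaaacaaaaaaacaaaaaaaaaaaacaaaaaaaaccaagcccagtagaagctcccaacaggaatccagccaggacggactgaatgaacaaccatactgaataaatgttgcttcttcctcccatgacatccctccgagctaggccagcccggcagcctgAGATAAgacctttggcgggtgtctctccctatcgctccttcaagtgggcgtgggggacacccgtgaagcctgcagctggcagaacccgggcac
Trim10: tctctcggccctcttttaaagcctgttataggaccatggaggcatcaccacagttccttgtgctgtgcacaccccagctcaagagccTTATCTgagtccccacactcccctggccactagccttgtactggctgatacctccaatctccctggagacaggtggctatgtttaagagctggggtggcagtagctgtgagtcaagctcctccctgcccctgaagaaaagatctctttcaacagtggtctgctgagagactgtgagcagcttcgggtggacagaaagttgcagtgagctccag
Each of the 3 windows held 1 match. Of the 40 erythroid genes with a window, 11 held one (27.5%), against 775 of 9887 genes of the array (7.84%). Of the 11, 10 rose, with a median difference of 1.30, and 23 of the 29 without a match rose, with a median of 0.90. A match is a description of letters in this window and says nothing of a factor bound there.

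All 6 measured globin genes were called higher, although the RNA had been depleted of beta-globin transcripts, with a median of 1.19. Hba-a1, Hba-a2 and Hba-x had low means of 4.44, 4.94 and 5.58 in irradiated and 3.98, 4.27 and 4.74 in unirradiated mice at 168 hr. In the 2 lowest quintiles of level 50.5% and 61.1% of all genes rose. After quantile normalisation 4 of the 6 globin genes were called, with the alpha-globin genes Hba-a1 at 0.06 (adjusted p = 0.703) and Hba-a2 at 0.28 (adjusted p = 0.16). With the SD covariate 3 were called (median 0.63). Hbb-b2, an adult beta-globin, showed the largest rise of all genes. Its levels were 9.89, 10.49 and 12.05 (lowest, median, highest) in the irradiated mice and 7.30, 8.12 and 6.91 in the unirradiated mice at 168 hr, a difference of 3.33 ± 0.45 (adjusted p = 1.82e-05). Here mice 3, 4 and 7 were highest (11.75 to 12.05, against 9.89 to 10.70 in the other 7), the reverse of their place for Epb42. Hbb-b2 also has another, dimmer probe set whose difference was -0.04. Hbb-y, an embryonic beta-like globin, rose by 1.78 ± 0.41 (adjusted p = 0.00121), with mice 3, 4 and 7 low (6.98 to 7.55) and the other 7 at 8.36 to 9.07. 

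More genes of mitosis rose than fell. Of 43 measured, 22 rose and 4 fell, with a median of 0.41, where 33.8% of all genes rose and 50.5% and 61.1% of those in the 2 lowest quintiles of level. With the dimmest 30% of genes left out 14 of 25 rose and 2 fell, after quantile normalisation 15 of 43 rose and 3 fell, and with the SD covariate 19 rose and 1 fell. The mean shift of the list was 0.14 to 0.27 in irradiated mice 3, 4 and 7 and 0.34 to 0.63 in the other 7, against -0.07 to 0.07 in the unirradiated mice at 168 hr. Ccna2, the cyclin of S and G2 phase, had levels of 7.87, 9.24 and 9.95 (lowest, median, highest) in the irradiated mice and 7.11, 7.60 and 6.84 in the unirradiated mice at 168 hr. Every irradiated mouse was above every unirradiated one, and the difference was 1.85 ± 0.39 (adjusted p = 0.000689), or 2.29 without mice 3, 4 and 7. Ccnb2, a mitotic cyclin, rose by 1.80 ± 0.39 (adjusted p = 0.000911). Ube2c, the ubiquitin-conjugating enzyme that starts the destruction of mitotic cyclins, had high levels in both groups (12.36 to 13.42 in irradiated and 11.25 to 12.07 in the 8 unirradiated mice) and rose by 1.23 ± 0.21 (adjusted p = 0.000153). Cdca3 (1.02 ± 0.18, adjusted p = 0.000166) and the kinetochore protein Nuf2 (0.88 ± 0.12, adjusted p = 2.06e-05) rose at low levels, under 6 in every mouse of the set. Ube2c and Ccna2 are also made in erythroid precursors, and the erythroid list moved with them. Their part in this change was not tested.

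DNA replication genes were called in both directions. Of 31 measured, 13 fell and 5 rose, with a median of -0.12, where 33.3% of all genes fell and 33.8% rose. The split was 10 and 3 after quantile normalisation, and 10 and 2 with the SD covariate (median -0.36). Rpa2, a subunit of the single-strand DNA binding complex, had levels of 5.08, 5.39 and 5.76 (lowest, median, highest) in the irradiated mice and 7.17, 7.05 and 7.20 in the unirradiated mice at 168 hr. The ranges were separate in all 18 mice, and the difference was -1.72 ± 0.18 (adjusted p = 2.33e-06), although the probe sets of this gene disagreed. Mcm5 (-1.60 ± 0.23, adjusted p = 3.61e-05) and Mcm7 (-1.25 ± 0.21, adjusted p = 0.000132), subunits of the replicative helicase, and Prim1, the DNA primase (-1.34 ± 0.21, adjusted p = 7.43e-05), fell. The risers were Rrm2 (1.23), the ribonucleotide reductase subunit of S phase, Mcm10 (0.90), Cdc45 (0.82), Fen1 (0.75) and Uhrf1 (0.70). With the SD covariate Rrm2 was higher (2.37, adjusted p = 2.81e-05), Mcm10 was -0.036 (adjusted p = 0.921), and Cdc45 (0.46), Fen1 (0.14) and Uhrf1 (0.52) did not pass the test.

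Promoters of mitotic genes commonly hold CCAAT boxes, the site of the factor NF-Y. The RefSeq windows (GRCm38.p6) of 2 genes that rose are shown with CCAAT or, on the other strand, ATTGG in capitals: Ccnb2 at chr9:70421505-70421804 on the minus strand and Cdca3 at chr6:124829926-124830225 on the plus strand.
Ccnb2: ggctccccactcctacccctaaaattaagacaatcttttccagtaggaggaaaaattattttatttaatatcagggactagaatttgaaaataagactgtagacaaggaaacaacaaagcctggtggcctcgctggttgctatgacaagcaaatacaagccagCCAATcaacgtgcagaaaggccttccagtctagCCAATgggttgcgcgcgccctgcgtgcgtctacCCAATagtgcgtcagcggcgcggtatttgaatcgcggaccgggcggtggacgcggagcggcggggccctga
Cdca3: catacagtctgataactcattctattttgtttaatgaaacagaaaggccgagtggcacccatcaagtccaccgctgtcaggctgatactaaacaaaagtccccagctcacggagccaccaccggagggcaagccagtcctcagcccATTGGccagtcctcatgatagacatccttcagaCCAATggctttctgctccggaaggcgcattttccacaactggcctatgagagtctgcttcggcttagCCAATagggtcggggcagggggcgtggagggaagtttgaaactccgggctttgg
Each held 3 matches, all 3 as written in Ccnb2 and 2 as written with 1 reversed in Cdca3. Of the 37 mitosis genes with a window 26 held a match (70.3%), against 3765 of 9887 genes of the array (38.1%). Of those 26, 13 rose (median 0.40), and of the 11 without a match 6 rose (median 0.41).

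The targets of p53 moved in both directions at 168 hr. Of 38 measured, 10 rose and 15 fell, with a median of -0.30, where 33.8% of all genes rose and 33.3% fell. After quantile normalisation 7 rose and 7 fell with a median of -0.01, and with the SD covariate 10 rose and 5 fell with a median of 0.11. Cdkn1a, the cell-cycle inhibitor p21, had levels of 6.98, 7.33 and 7.52 (lowest, median, highest) in the irradiated mice and 6.69, 7.26 and 6.67 in the unirradiated mice at 168 hr. The second unirradiated mouse lay inside the irradiated range. The difference was 0.45 ± 0.14 (adjusted p = 0.0103), and the call was lost without unirradiated mouse 1 or mouse 3 (0.35 each). Cdkn1a also has another, dimmer probe set whose difference was 1.31. Phlda3, an inhibitor of the kinase Akt, rose by 0.89 ± 0.21 (adjusted p = 0.00176), with every irradiated mouse above the 3 unirradiated mice at 168 hr. Gadd45a had the largest rise of the list (1.11 ± 0.22, adjusted p = 0.000478). Its difference was 1.60 after quantile normalisation and 1.88 with the SD covariate. Psrc1 rose by 0.83 ± 0.32 (adjusted p = 0.0322). It was 2.05 with the SD covariate, but did not pass after quantile normalisation (0.65, adjusted p = 0.212). Ddb2, which recognises ultraviolet-damaged DNA, had levels of 6.16, 6.48 and 6.97 in the irradiated mice and 8.71, 8.13 and 8.36 in the unirradiated mice at 168 hr. All irradiated mice were below all 8 unirradiated ones, and it fell by 1.90 ± 0.20 (adjusted p = 2.08e-06). Ephx1, an epoxide hydrolase, fell by 1.95 ± 0.26 (adjusted p = 1.62e-05), and Sesn1, a stress-responsive inhibitor of growth signalling, fell by 1.39 ± 0.19 (adjusted p = 2.03e-05). Mdm2, the ubiquitin ligase that limits p53, fell by 0.89 ± 0.23 (adjusted p = 0.00288), but its difference was 0.014 with the SD covariate. That of cyclin G1 (Ccng1, -0.64 ± 0.17, adjusted p = 0.00335) was 0.012 after quantile normalisation, and its 3 probe sets disagreed (-0.76 to 0.13).

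Calls among neutrophil genes depended on the scaling, and irradiated mouse 2 stood apart. Of 24 genes of mature neutrophils 1 rose and 1 fell, with a median of 0.22. After quantile normalisation 5 rose and 1 fell (median 0.51), with the SD covariate 7 rose and 0 fell (median 0.88), and without mice 3, 4 and 7 the counts were 4 and 1 (median 0.47). The mean shift of the list was 1.89 in irradiated mouse 2, 0.46 in the next highest irradiated mouse and -0.47 in the lowest, against -0.49 to 0.27 in the unirradiated mice at 168 hr. In mouse 2, Cxcr2, the chemokine receptor that guides neutrophils, reached 9.05, against 6.44 to 7.73 in the other 9 irradiated mice. The difference of Cxcr2 between the groups was 0.86 ± 0.39 (adjusted p = 0.0561), and S100a8 gave 0.23 ± 0.26 (adjusted p = 0.44). Of 16 genes of neutrophil granules, proteins made chiefly by marrow precursors, 7 rose and 1 fell (median 0.47). The counts were 4 and 1 with the SD covariate. When dim genes were left out, 2 of 11 granule genes rose and 1 fell, and the median was -0.08. Among all genes 33.8% rose, and 50.5% and 61.1% of those in the 2 lowest quintiles of level did. Ltf, lactoferrin of the secondary granules, rose by 1.02 ± 0.21 (adjusted p = 0.000591) at levels of 4.84 to 5.77 in the irradiated mice and 3.91 to 4.53 in the unirradiated mice at 168 hr. Ctsg, cathepsin G of the primary granules, rose by 0.74 ± 0.18 (adjusted p = 0.00221) at levels below 5 in every mouse. Serpinb1a, an inhibitor of neutrophil proteases, fell by 1.88 ± 0.21 (adjusted p = 4.99e-06).

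Of all genes 33.8% rose and 33.3% fell, and the other myeloid and platelet lists had smaller shares in each direction. Of 21 monocyte genes 3 rose and 3 fell (median -0.20), and 7 rose and 3 fell after quantile normalisation (median 0.22). Irf5, an interferon regulatory factor, fell by 1.12 ± 0.26 (adjusted p = 0.00128), though its probe sets disagreed, and Cd36, a scavenger receptor that erythroid precursors also carry, rose by 1.23 ± 0.37 (adjusted p = 0.00815; 1.67 without mice 3, 4 and 7, and lost without unirradiated mouse 3). Of 17 genes of eosinophils, basophils and mast cells 4 rose and 4 fell. The eosinophil genes Il5ra, the interleukin 5 receptor (-1.03 ± 0.21, adjusted p = 0.000471), and Siglecf (-1.004 ± 0.29, adjusted p = 0.00564) were among the falls, Siglecf losing its call without unirradiated mouse 3. The eosinophil granule gene Epx was called higher (0.78 ± 0.34, adjusted p = 0.0493) and was -0.68 with the SD covariate (adjusted p = 0.0117), and Prg2, another granule gene of these cells, was at 0.72 ± 0.35 (adjusted p = 0.0778). Of 31 platelet and megakaryocyte genes 4 rose and 1 fell, with a median of -0.03, which was 0.28 after quantile normalisation and 0.74 with the SD covariate. Pf4 differed by -0.10 ± 0.21 (adjusted p = 0.683), and its levels overlapped fully. Itgb3, the beta chain of the platelet fibrinogen receptor, was called higher (1.18 ± 0.23, adjusted p = 0.000431) at low levels of 5.33 to 6.71 in the irradiated and 4.62 to 4.96 in the 8 unirradiated mice.

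Of 34 genes that respond to interferon 16 fell and 3 rose, with a median of -0.43. The balance depended on scaling, since 4 rose and 8 fell after quantile normalisation, and 10 rose and 6 fell with the SD covariate. Psmb8, a subunit of the immunoproteasome that is abundant in lymphocytes, had levels of 8.19, 8.94 and 9.60 (lowest, median, highest) in the irradiated mice and 10.44, 10.20 and 10.73 in the unirradiated mice at 168 hr. No irradiated mouse reached an unirradiated one, and the difference was -1.52 ± 0.24 (adjusted p = 6.03e-05). Psmb9, its partner subunit, fell by 1.40 ± 0.21 (adjusted p = 4e-05). Of 35 NF-kB and inflammatory genes 8 fell and 4 rose (median -0.10), fewer in each direction than the 33.3% and 33.8% of all genes. Relb, a subunit of NF-kB, fell by 1.37 ± 0.18 (adjusted p = 1.93e-05), Birc3, an inhibitor of apoptosis that NF-kB induces, fell by 1.23 ± 0.17 (adjusted p = 2.18e-05), and the inflammasome sensor Nlrp3 rose by 0.59 ± 0.15 (adjusted p = 0.00252). Of 33 immediate early and stress genes 14 fell and 7 rose, but 6 rose and 6 fell after quantile normalisation, and 7 rose and 2 fell with the SD covariate. Txnip, which binds thioredoxin and is induced by glucose, fell by 1.34 ± 0.28 (adjusted p = 0.00069) and was -0.22 with the SD covariate, and Myc, a growth-promoting transcription factor, fell by 1.13 ± 0.19 (adjusted p = 0.000123).

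Among the genes with the largest rises outside these lists was Asns, asparagine synthetase, an enzyme induced by amino acid shortage. Its levels were 6.07, 7.56 and 8.84 (lowest, median, highest) in the irradiated mice and 4.56, 5.31 and 4.50 in the unirradiated mice at 168 hr. All irradiated mice exceeded all 8 unirradiated ones, mice 3, 4 and 7 by the least (6.07 to 6.32), and the difference was 2.66 ± 0.48 (adjusted p = 0.000187). Cox6b2, an isoform of a cytochrome c oxidase subunit best known from testis, separated the groups more tightly, with 10.85 to 11.65 in the irradiated and 8.73 to 9.75 in the 8 unirradiated mice (2.27 ± 0.22, adjusted p = 1.3e-06). Ctsf, the lysosomal protease cathepsin F, rose by 2.26 ± 0.39 (adjusted p = 0.000136), and Specc1, a cytoskeletal protein, rose by 2.18 ± 0.46 (adjusted p = 0.000654). For the non-coding RNA Meg3 (2.18 ± 0.37, adjusted p = 0.000134), the glycosyltransferase B3gnt3 (2.26 ± 0.31, adjusted p = 2.39e-05) and Gpaa1, a subunit of the enzyme that attaches GPI anchors (2.26 ± 0.37, adjusted p = 9.27e-05), mice 3, 4 and 7 were the highest irradiated mice. The probe sets of Gpaa1 disagreed, with differences from -0.03 to 2.26. Cpe, carboxypeptidase E of neuroendocrine cells, rested on 1 mouse. It was 11.44 in irradiated mouse 7 and 5.54 to 7.92 in the other 9, against 4.82, 4.80 and 4.90 in the unirradiated mice at 168 hr. Its difference of 2.23 ± 0.81 (adjusted p = 0.0213) was 1.37 without mice 3, 4 and 7 and -0.86 with the SD covariate. The other probe set of Cpe differed by -0.25.

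Among the largest falls outside these lists were Crisp3, a cysteine-rich secretory protein, Igkv6-14, a kappa light chain variable segment, and B3gnt5, a glycolipid-forming glycosyltransferase. Crisp3 had levels of 3.11, 3.75 and 5.12 (lowest, median, highest) in the irradiated mice and 6.91, 7.06 and 6.96 in the unirradiated mice at 168 hr. It separated the irradiated mice from all 8 unirradiated mice (lowest 5.78) and fell by 3.07 ± 0.37 (adjusted p = 8.89e-06), the largest fall of all genes. Igkv6-14 fell by 2.84 ± 0.33 (adjusted p = 6.08e-06), with 5.15 to 6.85 in the irradiated mice and 8.80, 8.80 and 9.20 in the unirradiated mice at 168 hr. B3gnt5 fell by 2.69 ± 0.22 (adjusted p = 3.03e-07). Zcchc7, a zinc-knuckle protein of nuclear RNA surveillance, fell by 2.48 ± 0.21 (adjusted p = 3.5e-07), and Cd55, which shields cells from complement, fell by 2.40 ± 0.26 (adjusted p = 3.06e-06).

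Markers of liver, a tissue outside the blood, were also higher. Of 25 hepatocyte genes 17 rose and 0 fell (median 1.46), and 10 rose after quantile normalisation and 9 with the SD covariate. Of all genes 33.8% rose, and of those in the 2 lowest quintiles of level 50.5% and 61.1% did. With the dimmest 30% of genes left out, 15 of 19 hepatocyte genes rose (median 1.59). The mean level of the list was 5.22 to 8.39 in the irradiated mice and 4.50 to 6.21 in the 8 unirradiated mice. Alb, serum albumin, had levels of 5.92, 8.84 and 11.93 (lowest, median, highest) in the irradiated mice and 4.87, 6.69 and 7.12 in the unirradiated mice at 168 hr. The irradiated mice were widely spread and overlapped the unirradiated mice, the highest of all 8 being at 9.71. The difference of 2.73 ± 1.13 (adjusted p = 0.0412) was lost when any 1 of the unirradiated mice was left out. Cyp3a11, a cytochrome P450 of the liver, behaved alike, at 5.03 to 10.77 in irradiated mice and 3.31 to 5.73 in unirradiated mice at 168 hr. The highest of all 8 unirradiated mice was at 7.52. The difference was 2.89 ± 1.09 (adjusted p = 0.0265), and the call was lost without unirradiated mouse 1 or mouse 3. Of 18 tissue macrophage genes 4 rose, 0 fell and 14 were not called (median -0.08). Those that rose included Clec4f of Kupffer cells (0.71 ± 0.17, adjusted p = 0.00209) and Siglec1 (0.88 ± 0.31, adjusted p = 0.0182). With the SD covariate 2 of the 18 rose, and Clec4f was at 0.098 (adjusted p = 0.676) and Siglec1 at -0.40. The part of RNA from liver in the other results was not tested.

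The same dose had been measured at 6 hr in the small treatment set, and the change at 168 hr was compared with the change at 6 hr, each against unirradiated mice of its own set and time. The changes differed for 6273 genes (50.6%), 3153 with the higher change at 168 hr (25.4%) and 3120 with the lower (25.2%). Without the array labelled unirradiated mouse 10 they differed for 5843 genes (47.1%), 2906 higher (23.4%) and 2937 lower (23.7%). The count was 2575 after quantile normalisation, 2385 after quantile normalisation with that array left out, and 2014 with mouse number as a block. The 2 times came from different sets, so time and set cannot be told apart.

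B cell surface genes had a median change of -1.99 at 168 hr and -1.06 at 6 hr, which was -1.58 at 6 hr without that array. The test of the difference called 1 of 23 higher and 2 lower at 168 hr with the array, and 1 and 3 without it. Cd22 changed by -2.47 ± 0.18 at 168 hr, and by -1.13 ± 0.40 at 6 hr with the array and -1.71 ± 0.21 without it (difference without it -0.76 ± 0.31, adjusted p = 0.0481). For T cell genes the medians were -1.37 at 168 hr and -0.11 at 6 hr (-0.25 without the array), and 19 of 28 were lower at 168 hr by the test and 1 higher (17 and 1 without the array, 9 and 1 after quantile normalisation). Cd3g changed by -2.15 ± 0.27 at 168 hr and by -0.14 ± 0.29 at 6 hr (difference -2.01 ± 0.44, adjusted p = 0.00202). Without the array its change at 6 hr was -0.34 ± 0.28, and the difference was -1.80 ± 0.41 (adjusted p = 0.00308). Genes of natural killer and cytotoxic cells had medians of -0.70 at 168 hr and 0.45 at 6 hr (0.36 without the array). Of the 20, 10 were lower at 168 hr by the test, 9 without the array and 3 after quantile normalisation. The share of all genes lower at 168 hr was 25.2%, or 23.7% without the array and 9.97% after quantile normalisation.

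**Figure D4:**
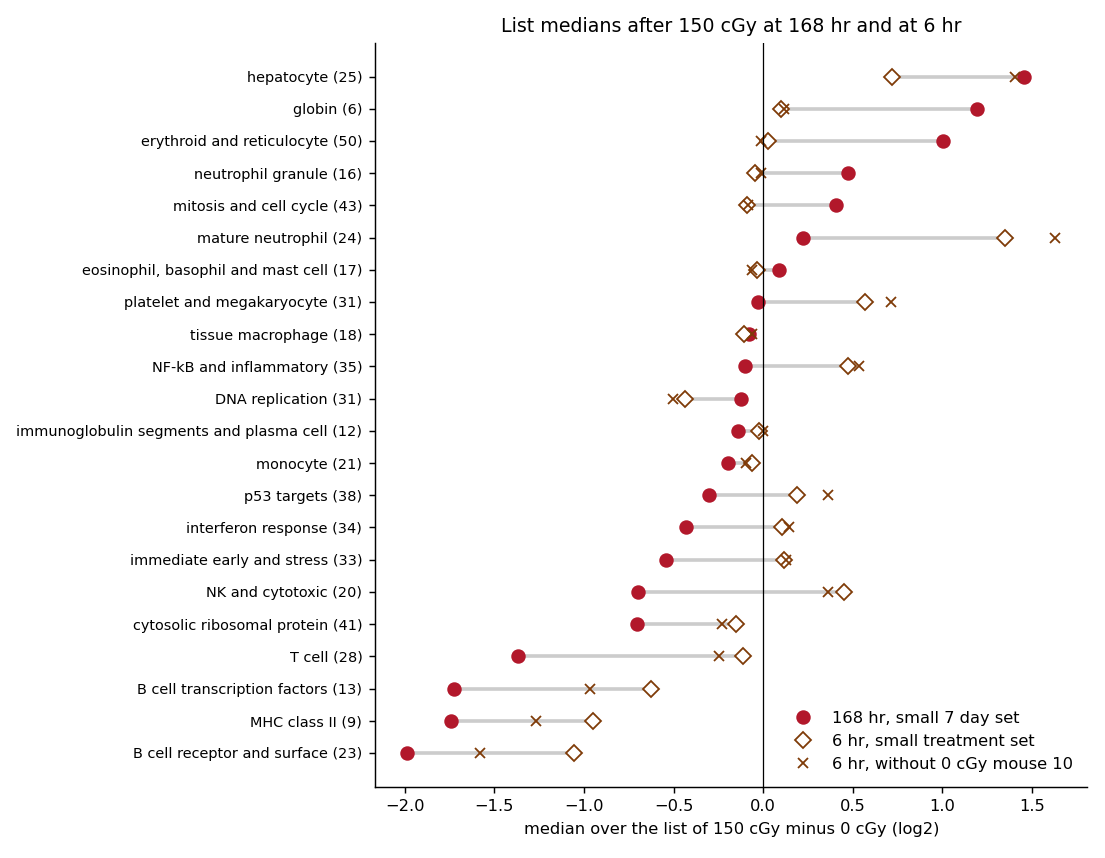
Median log2 difference between mice given 150 cGy and unirradiated mice over the genes of each list (x axis), at 168 hr in the small 7 day set (filled circles) and at 6 hr in the small treatment set, with (open diamonds) and without (crosses) the array labelled unirradiated mouse 10, with 1 row per list (y axis). The erythroid median was 1.004 at 168 hr and 0.03 at 6 hr, and the median of mature neutrophil genes 0.22 at 168 hr and 1.35 at 6 hr, or 1.63 without that array.

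Erythroid genes had a median change of 1.004 at 168 hr and 0.03 at 6 hr (-0.01 without the array), and 31 of 50 were higher and 2 lower at 168 hr by the test. The counts were 31 and 1 without the array, and 35 and 0 after quantile normalisation. The share of all genes higher at 168 hr was 25.4%, or 23.4% without the array and 10.8% after quantile normalisation. Epb42 changed by 2.24 ± 0.40 at 168 hr and by -0.25 ± 0.35 at 6 hr, a difference of 2.50 ± 0.53 (adjusted p = 0.00182). Without the array its change at 6 hr was -0.48 ± 0.35, and the difference was 2.72 ± 0.51 (adjusted p = 0.000965). Mitosis genes had medians of 0.41 at 168 hr and -0.09 at 6 hr, with 19 of 43 higher at 168 hr and 0 lower (15 and 1 without the array, 9 and 0 after quantile normalisation).

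Mature neutrophil genes had medians of 0.22 at 168 hr and 1.35 at 6 hr (1.63 without the array). Of the 24, 5 were lower at 168 hr by the test with the array and 16 without it, and after quantile normalisation the counts were 0 and 6. The shares of all genes lower at 168 hr were 25.2% and 23.7%, and after quantile normalisation 9.97% and 9.30%. The p53 targets had medians of -0.30 at 168 hr and 0.19 at 6 hr (0.36 without the array). Of the 38, 18 were lower and 4 higher at 168 hr, or 20 and 4 without the array. Cdkn1a, by its brighter probe set, changed by 0.45 ± 0.14 at 168 hr and 1.97 ± 0.34 at 6 hr (difference -1.53 ± 0.52, adjusted p = 0.0187). Without the array its change at 6 hr was 2.50 ± 0.14, and the difference was -2.06 ± 0.20 (adjusted p = 3.82e-07). Ccng1 changed by -0.64 ± 0.17 at 168 hr and 1.19 ± 0.27 at 6 hr (difference -1.83 ± 0.40, adjusted p = 0.00212). Without the array the change of Ccng1 at 6 hr was 1.49 ± 0.21, and the difference was -2.13 ± 0.31 (adjusted p = 0.000134). Phlda3 changed by 0.89 ± 0.21 at 168 hr and 1.46 ± 0.29 at 6 hr, a difference of -0.57 ± 0.44 that did not pass the test (adjusted p = 0.265). Without the array its change at 6 hr was 1.85 ± 0.18, and the difference of -0.96 ± 0.27 passed (adjusted p = 0.00888). The gene with the most negative difference was Socs3, the feedback inhibitor of cytokine signalling (-0.34 ± 0.44 at 168 hr and 2.25 ± 0.45 at 6 hr, difference -2.59 ± 0.69, adjusted p = 0.00559, or -3.04 ± 0.57 without the array).

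The dose-time set gave 100 and 200 cGy at the same 168 hr, with 5 unirradiated mice of its own. In that set 2136 genes differed from unirradiated mice after 100 cGy (17.2%) and 7520 after 200 cGy (60.7%). The 100 cGy count was 782, 1104 and 1284 without mice 2, 1 and 5 of that dose, and 852, 931 and 1160 without unirradiated mice 3, 2 and 4. Of the 4189 genes that rose after 150 cGy, 520 also rose after 100 cGy and 3065 after 200 cGy (12.4% and 73.2%), which were 78.1% and 81.1% of the rises at those doses. Of the 4125 falls, 1453 and 3334 were shared (35.2% and 80.8%), or 98.8% and 89.1% of the falls after 100 and 200 cGy. Opposite calls were made for 3 genes, which fell after 150 cGy and rose after 200 cGy, and for 0 genes between 150 and 100 cGy. Across the 12393 genes the differences after 150 cGy had a Pearson correlation of 0.87 with those after 100 cGy and 0.92 with those after 200 cGy (Spearman 0.89 and 0.92). The 2 dose-time comparisons share their unirradiated mice, genes are not independent replicates, and the correlations are a description.

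**Figure D5:**
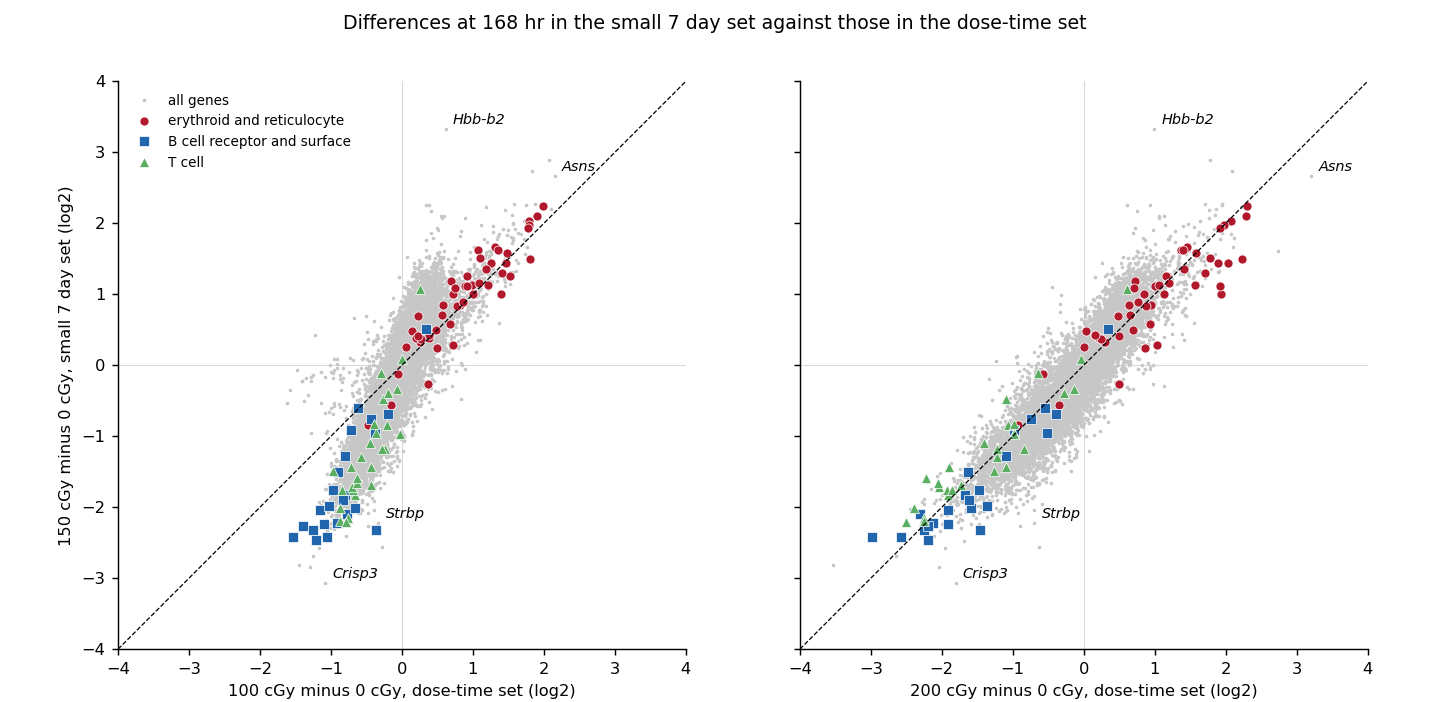
Log2 difference at 168 hr between mice given 150 cGy and unirradiated mice of the small 7 day set (y axis) against that between mice given 100 cGy (left) or 200 cGy (right) and unirradiated mice of the dose-time set (x axis); grey points are genes, circles erythroid, squares B cell and triangles T cell genes, and the dashed line marks equal differences. Asns lay at 2.66 after 150 cGy, against 2.15 after 100 cGy and 3.20 after 200 cGy, whereas Hbb-b2 lay at 3.33, against 0.62 and 0.99.

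The medians of the B cell, T cell, erythroid and ribosomal protein lists had the same sign at all 3 doses. B cell surface genes had a median of -1.99 after 150 cGy, against -0.83 after 100 cGy and -1.61 after 200 cGy. Of its 23 genes 22 fell after 150 cGy, against 18 after 100 cGy and 21 after 200 cGy, doses at which 11.9% and 30.2% of all genes fell. T cell genes had a median of -1.37 after 150 cGy, against -0.44 and -1.24, with 23 of 28 fallen after 150 cGy, against 13 and 24. Erythroid genes had a median of 1.004 after 150 cGy, against 0.84 and 0.98. Of its 50 genes 41 rose after 150 cGy, against 37 after 100 cGy and 40 after 200 cGy, doses at which 5.37% and 30.5% of all genes rose. Epb42 changed by 2.24 ± 0.40 after 150 cGy, against 1.99 ± 0.20 after 100 cGy and 2.29 ± 0.20 after 200 cGy. Ribosomal protein genes had a median of -0.71 after 150 cGy, against -0.42 and -0.59.

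The change after 150 cGy was tested against the mean of the changes after 100 and 200 cGy. It differed for 149 genes (1.20%), 21 higher (0.169%) and 128 lower (1.03%). The count depended on single mice. It was 4 without unirradiated mouse 1 and 24 without unirradiated mouse 3 of the small 7 day set, 265 without irradiated mouse 5, and 40 and 57 without unirradiated mice 1 and 5 of the dose-time set. Among the called genes, the largest positive difference was that of Hbb-b2 (2.52, adjusted p = 0.0168), a call lost without unirradiated mouse 1 or mouse 3, and the largest negative one that of Strbp, an RNA-binding protein. Strbp had levels of 4.11, 4.33 and 4.65 (lowest, median, highest) in the irradiated mice and 6.88, 6.37 and 6.58 in the unirradiated mice at 168 hr. It fell by 2.22 ± 0.15, against changes of -0.33 ± 0.15 after 100 cGy and -0.69 ± 0.15 after 200 cGy, a difference of -1.71 (adjusted p = 1.32e-05), though its probe sets disagreed. Srpk3, a kinase of splicing factors, also differed (-1.41, adjusted p = 0.000466), with a fall of 2.04 ± 0.13 after 150 cGy, against -0.56 ± 0.18 and -0.71 ± 0.18. The other probe set of Srpk3 differed by 0.16 after 150 cGy. Erythroid genes such as Epb42 (0.10, adjusted p = 0.922) and Rhd (0.01, adjusted p = 0.989) did not pass this test. Set and dose cannot be told apart in it.

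The unirradiated mice of the set were compared with each other as a check. Between the 3 mice at 168 hr and the 5 at 6 and 24 hr, limma called 0 of 12393 genes (0%), and 282 had an unadjusted p under 0.05. With only 3 and 5 mice, small differences between them may have gone undetected.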

How the data were processed

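Globin-reduced RNA from peripheral blood had been hybridised to Affymetrix Mouse 430A 2.0 arrays, per the labels' protocols. The deposited table holds a log2 signal for each probe set and array, which the authors made by RMA in the affy package, per the submitters' processing notes, with no version given. Whether the arrays of all sets were normalised together is not given in the sources used here. The 2 whole-array properties that could change the results, the spread of each array and the scaling, were therefore varied. No per-sample columns were left unmapped.

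Of 22690 probe sets, 64 controls, 1555 without a symbol and 691 with several were left out. The other 20380 gave 12393 genes, and a gene with several probe sets (4956 genes) was represented by the one whose mean was highest over all arrays. The Entrez identifier of 29 probe sets was unmatched in the mouse reference table. Groups were taken from the titles. Differences were tested with limma 3.58.1 (R 4.3.3) on a group-means model over 12393 genes with Benjamini-Hochberg adjustment (threshold 0.05). The first comparison and the comparison of unirradiated mice used all 18 arrays of the set, the comparison with 6 hr added the 12 mice of the small treatment set, and the comparisons with 100 and 200 cGy used the 15 mice of the dose-time set, alone or with the 18. Single values were compared by exact permutation over mice. The code was tested on simulated data with independent values and few changed genes. Those data did not hold the difference in array spread, so that test does not bear on it. Promoter letters were searched with Python 3.11.15 in the first RefSeq window of a gene.

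Genes were named by rule: in the first comparison the 12 largest rises and the 12 largest falls, up to 6 members of each of the 23 lists with the smallest p, a fixed group of markers, and the 5 largest rises and 5 largest falls in the other comparisons. Of the genes in the text, Cd24a, Pou2f2, Pax5, H2-Ea, Cd4, Zap70, Rpl27a, Cited2, Add1, Rrm2, Mcm10, Cdc45, Fen1, Uhrf1, Gadd45a, Epx and Prg2 lie outside that rule and were chosen after their values were seen. The members and lists were chosen with earlier results of these data known. Mouse numbers gave no clear sign of pairing. Over 15 pairs of mice of the same number in different groups of the set, deviations from group means had a mean correlation of -0.13 (-0.61 to 0.28). That mean cannot exclude pairing, and counts with mouse number as a block are given below. The alternatives covered the dim genes, probe set choice, scaling, samples and controls, array weights, priors, mouse numbers and single mice. The number of arrays limits the precision.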

Additional observations from a re-analysis of the deposited data

Results flagged for a closer look

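Among 201 gene and list values checked in the 10 irradiated mice at 168 hr, 11 had 1 mouse far from the others by Dixon's test (critical value 0.466), a mark that chance gives to about 1 in 20 groups. Of these, 7 concerned irradiated mouse 2, which was low for Iglv1 and high for the others. They were the mean shift of mature neutrophil genes (1.89), the mean shift of neutrophil granule genes (0.85), Il1b, the cytokine interleukin 1 beta (11.37), Cxcr2 (9.05), Csf3r, the receptor for the granulocyte growth factor G-CSF (11.70), Socs3 (9.72), and the lambda light chain segment Iglv1 (8.04). Il1b, Cxcr2 and Csf3r did not pass the test between the groups. The others were Cpe in mouse 7 (11.44), Phlda3 in mouse 4 (6.49), Ighm in mouse 5 (11.76) and the interferon-induced GTPase Gbp3 in mouse 4 (6.62).

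The change after 150 cGy differed between 168 hr and 6 hr for 6273 genes by the test of the difference. Among the called genes, the 5 most positive differences were those of Hbb-b2 (2.62), Epb42 (2.50), Asns (2.49), Rhd (2.43) and Selenbp1 (2.25), a selenium-binding protein. The 5 most negative were those of Socs3 (-2.59), the cold-inducible RNA-binding protein Cirbp (-2.46), the chemokine receptor Cxcr6 (-2.35), the zinc-finger gene Zfp53 (-2.35) and Rpl37 (-2.35). Without the array labelled unirradiated mouse 10 of the small treatment set, the same 5 positive differences ran between 2.27 and 2.72 and the 5 negative ones between -3.04 and -2.30.

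Among 38 gene values of the small treatment set at 6 hr, 5 had 1 of 6 mice far from the others by the same test (critical value 0.625), each time the array labelled unirradiated mouse 10. It was low for Cd22 (7.13, with the nearest unirradiated mouse at 10.15), Cd79a (7.23, against 10.82) and Ighv14-2 (5.95, against 10.19), and high for Cdkn1a (10.47, against 7.47) and Phlda3 (9.27, against 7.41).

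The change at 168 hr also differed between 150 cGy and the mean of 100 and 200 cGy for 149 genes by the test of the difference. Among these, the 5 most positive were those of Hbb-b2 (2.52), Gpaa1 (1.76), B3gnt3 (1.63), Cad, an enzyme of pyrimidine synthesis (1.17), and Mpp5, a scaffold of cell polarity (1.08). The 5 most negative were those of Strbp (-1.71), Crisp3 (-1.62), Zfp942 (-1.57), Srpk3 (-1.41) and Vpreb3 (-1.40). The calls of Cad, Mpp5 and Crisp3 were lost in most fits that left out 1 mouse. The probe sets of Hbb-b2, Gpaa1, Cad, Mpp5, Strbp and Srpk3 disagreed in sign after 150 cGy.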

How the results depend on the processing

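The count after 150 cGy, 8314 genes, was 6653 to 8431 when 1 mouse was left out (3023 to 4278 risen, 3586 to 4177 fallen). Quantile normalisation gave 5348 (2434 risen) and the array's SD as a covariate 3410 (1508 risen, 1902 fallen), and with dim genes left out 2149 rose. The count differing from 6 hr was 2575 after quantile normalisation (2385 also without the array labelled unirradiated mouse 10 of the small treatment set, chosen after seeing the data), 2014 with mouse number as a replicate block, and 4333 to 6816 without 1 mouse. After 100 cGy it was 1065 after quantile normalisation and 782 to 2578 without 1 mouse, and after 200 cGy 6354 to 8917. The count differing from 100 and 200 cGy was 80 with dim genes left out, 33 after quantile normalisation, 35 with the block, 290 with all 48 groups of the dose-time set fitted, and 4 to 265 without 1 mouse. In the dose-time set it was 73 and 92 without mice 4 and 3 of 100 cGy and 80 without unirradiated mouse 4. The comparison of unirradiated mice stayed at 0 without any 1 mouse. Signs turned with the SD covariate for Cpe (-0.86), Rpl37 (0.19), Mdm2 (0.014), Klra8 (0.13), Cxcr4 (0.051), Siglec1 (-0.40), F2r (0.26) and Il13 (-0.080), after quantile normalisation for Ccng1 (0.012), Cd3e (0.16) and Elane (-0.019), without mice 3, 4 and 7 and quantile normalised for Cd3e (0.060), and with the mean of probe sets for Sdc1 (-0.12) and Ighm (0.20). Those genes are among the named calls. Mcm10 (-0.036), Zap70 (-0.31) and Epx (-0.68), which lie outside the naming rule, also turned with the SD covariate. The cause of these turns was not tested. Of 167 named calls, quantile normalisation kept direction and threshold for 142, the covariate for 106, leaving out mice 3, 4 and 7 for 166, and the block for 153. With the block 6929, 1479 and 7048 genes were called after 150, 100 and 200 cGy. With 3 unirradiated mice, 1 such mouse could decide a call.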

Other observations

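Several genes not described above were higher in the irradiated than in the unirradiated mice at 168 hr. Selenbp1, a selenium-binding protein abundant in red cells, had levels of 8.40, 9.96 and 10.88 (lowest, median, highest) in the irradiated mice and 7.36, 8.27 and 7.35 in the unirradiated mice at 168 hr. Every irradiated mouse was higher than every unirradiated one, and mice 3, 4 and 7 were the lowest of the irradiated mice (8.40 to 8.92). It rose by 2.00 ± 0.41 (limma adjusted p = 0.000603). Atf5, a stress-responsive transcription factor, rose by 1.61 ± 0.37 (adjusted p = 0.00127), at 7.33 to 9.58 in the irradiated and 6.10 to 6.65 in the 8 unirradiated mice, without overlap. Hmox1, haem oxygenase 1, rose by 0.86 ± 0.14 (adjusted p = 8.06e-05), and Mt2, a metallothionein, rose by 0.86 ± 0.19 (adjusted p = 0.000837).

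Cirbp, the cold-inducible RNA-binding protein, fell by 2.04 ± 0.32 (adjusted p = 6e-05). Its levels were 4.52, 5.58 and 6.13 (lowest, median, highest) in the irradiated mice and 7.64, 7.00 and 7.99 in the unirradiated mice at 168 hr, and all irradiated mice lay below all unirradiated mice of the set. At 6 hr in the small treatment set its change was 0.42 ± 0.23, or 0.43 ± 0.25 without the array labelled unirradiated mouse 10. Cxcr6, a chemokine receptor of activated T and natural killer cells, fell by 1.43 ± 0.39 (adjusted p = 0.00449) with overlapping groups (5.33 to 7.31 in irradiated and 6.90 to 7.92 in unirradiated mice at 168 hr), and its change at 6 hr was 0.92 ± 0.33, or 0.94 ± 0.35 without that array.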
